A study of Mus musculus with 59 samples.

Results

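The genes described here were those of brown adipose tissue (BAT) whose transcripts rose only late after a thyroid hormone (TH) injection. They were chosen by their measured values in wild-type (WT) mice, among 9212 genes with a mean raw count of 50 or more. Expression was taken as log2(CPM + 0.5), where CPM is the number of reads scaled to 1000000 reads counted outside the mitochondrial genome, and was averaged over the mice of a group. A late gene had to lie at least 0.8 above the hypothyroid controls at 24 h and to differ from them by less than 0.35, in either direction, at both 3 and 6 h. The rule was met by 84 genes, which are 0.912% of the 9212 genes, out of 55341 genes listed. Since the 3, 6 and 24 h values of WT mice selected the genes, those values are given as a description only, and no test was made on them.

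RNA was sequenced from the BAT of 59 male C57BL/6J mice aged 8 to 12 weeks in 3 experiments. All animals of the TH experiment were first made hypothyroid with propylthiouracil (PTU) in the food for 2 weeks. The WT mice were either PTU controls without TH or were taken 3, 6, 12 or 24 h after a single intraperitoneal injection of T3 and T4, with 4 mice in each of these 5 groups. BATKO mice of the same experiment comprised 5 PTU controls and 5 mice taken 24 h after TH. In the temperature experiment, 3 CTRL and 4 BATKO mice were kept at 4 °C, and 4 CTRL and 5 BATKO mice at 30 °C, with a duration of 24 h in the name of the table. In the diet experiment, 4 CTRL and 3 BATKO mice received a high-fat diet (HFD), and 4 CTRL and 2 BATKO mice received Chow, with a duration of 3.5 d in the name of the table. Neither the labels nor the text of the study say which gene is changed in BATKO mice, nor what drives the change, so that BATKO is used here as a label only.

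TH acts through nuclear receptors, encoded by Thra and Thrb, that bind DNA with RXR at pairs of the half-site AGGTCA. Genes with an occupied site can respond within a few hours, whereas genes that depend on newly made regulators, or on a changed metabolic state, respond later. BAT is known for burning fatty acids and glucose to make heat, and TH and noradrenaline from sympathetic nerves both drive this tissue, the latter during cold. PTU blocks the synthesis of TH in the thyroid, so that the injection acts on a tissue low in the hormone.

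Promoter sequences (RefSeq, GRCm38.p6), covering 250 bases before the annotated start, were found for 57 of the 84 late genes, of which 56 were protein-coding. The half-site AGGTCA, searched on both strands, was present in 5 of these genes (8.77%), as compared with 12.7% of the genes meeting the count limit. It was present in 14.0% of all 32851 promoters in the table, counted by promoter and not by gene. These 5 genes were Srxn1, Dhcr7, Dnmt3a, Pygl and Strbp. The promoters of Dhcr7, Srxn1 and Strbp are shown as the examples with the half-site on the strand of the gene, the letters that a TH receptor can bind being in capitals. Dnmt3a and Pygl hold it on the opposite strand (TGACCT). RefSeq lists several starts for Dhcr7, 3 of which have a half-site in their window, and the most upstream of these windows is shown. They are written in the direction of each gene and end just before a start that RefSeq lists, which in Dhcr7 and Srxn1 lies downstream of the gene start in the coordinates given further on.
Dhcr7, chr7:143822917-143823166, + strand: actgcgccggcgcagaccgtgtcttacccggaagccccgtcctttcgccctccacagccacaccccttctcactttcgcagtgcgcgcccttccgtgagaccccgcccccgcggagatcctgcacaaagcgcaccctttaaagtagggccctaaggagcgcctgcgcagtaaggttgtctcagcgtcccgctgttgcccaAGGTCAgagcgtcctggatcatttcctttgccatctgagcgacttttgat
Srxn1, chr2:152105274-152105523, + strand: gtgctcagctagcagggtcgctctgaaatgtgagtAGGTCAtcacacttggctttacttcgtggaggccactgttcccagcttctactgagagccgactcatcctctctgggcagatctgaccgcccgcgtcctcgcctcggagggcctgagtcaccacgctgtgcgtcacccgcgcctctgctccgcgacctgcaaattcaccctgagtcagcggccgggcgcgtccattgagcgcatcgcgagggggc
Strbp, chr2:37703860-37704109, - strand: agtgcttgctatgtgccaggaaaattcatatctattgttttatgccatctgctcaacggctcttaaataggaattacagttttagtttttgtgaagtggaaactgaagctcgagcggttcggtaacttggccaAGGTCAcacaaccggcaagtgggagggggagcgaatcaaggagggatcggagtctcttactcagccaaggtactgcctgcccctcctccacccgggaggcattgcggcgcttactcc 
The first letter of the half-site lay at position -50 from that RefSeq start in Dhcr7 (and at -232 and -37 from the other two starts), at -215 in Srxn1 and at -117 in Strbp. A direct repeat of AGGTCA with 4 bases between the copies (DR4) was found for 0 of the 57 late genes and, counted by promoter, in 0.0152% of all promoters. The CCAAT box was found for 17 late genes (29.8%, against 39.9% of the 6925 genes meeting the count limit that had a promoter in the table) and the GC box GGGCGG for 40 (70.2% against 67.0%). The E-box CACGTG was found for 6 late genes (10.5% against 10.4%). None of these shares was tested.

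Between 7805938 and 14615534 reads per WT mouse and between 13593987 and 18073627 reads per BATKO mouse of the TH experiment had been assigned to genes, of which 40.0% to 55.7% fell on mitochondrial genes. All 12 markers of brown adipocytes on the list used were detected in every group. Markers of skeletal muscle varied widely among mice, between 281 and 2380 CPM in sum over 17 genes in WT controls and between 868 and 3716 CPM at 24 h, with 933 to 5316 CPM at 6 h. No late gene was on this list, although 15 of its 16 genes meeting the count limit lay 0.8 or more above the controls at 24 h. Of the 11 lists of cell type markers, 9 overlapped between 24 h and control mice, lymphocyte markers were higher (41.6 to 97.6 against 19.0 to 37.5 CPM in sum over 21 genes) and markers of neutrophils and mast cells were lower (43.8 to 58.7 against 64.7 to 93.1 CPM over 12 genes). The part of these cell types, and of muscle, in the results was not tested. In bulk tissue, fewer cells of a type and less RNA per cell cannot be told apart.

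Over the time course of WT mice, the late genes differed from the controls by a median of 0.10 at 3 h and 0.16 at 6 h, both within the limits of the rule. The difference grew to 0.38 at 12 h, a time that the rule did not use, and to 0.94 at 24 h, always on the scale of log2(CPM + 0.5). For comparison, the median over the 9212 genes was -0.05 at 12 h and 0.01 at 24 h. The 12 h mice were compared with the same controls that served to choose the genes, and no test was therefore made at 12 h either. At this time 45 genes lay 0.35 or more above the controls, 37 lay within 0.35 of them, and 2, BC034090 (-0.64) and Cystm1 (-0.40), lay below them. The lower and upper quartiles at 12 h were 0.12 and 0.54. The median late gene had covered 39.9% of its 24 h difference by 12 h. Only 5 genes had reached 0.8 by then, among them Ripor2 (1.11) and BC028528 (1.04), and BC028528 was the only late gene that lay higher at 12 h than at 24 h (0.92).

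**Figure D1:**
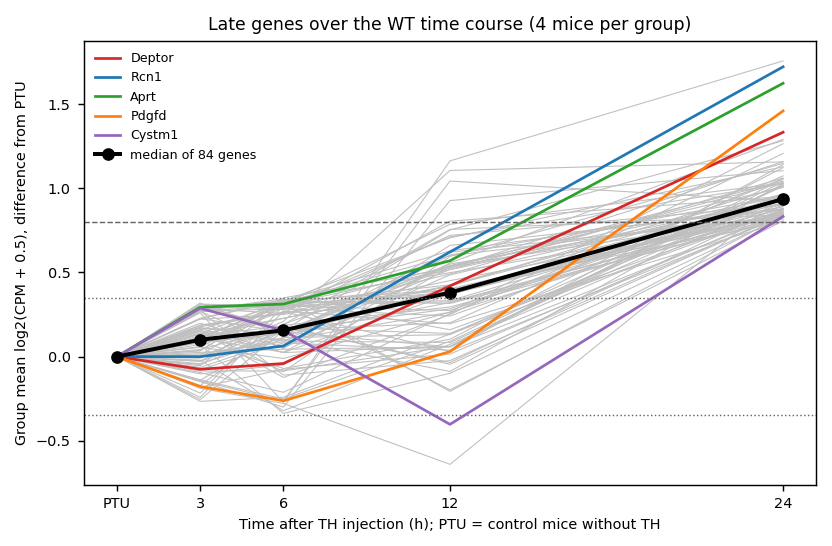
Difference from the WT controls in group mean log2(CPM + 0.5), against hours after TH, for each of the 84 late genes (grey, 5 of them coloured) and their median (black, 4 mice per group); dotted lines mark the limits of 0.35 and the dashed line the limit of 0.8. The median goes from 0.10 at 3 h to 0.38 at 12 h and 0.94 at 24 h, while Cystm1 lies at -0.40 at 12 h.

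The 4 mice taken at 24 h and the controls served to choose the genes, so that their values by mouse are a description only. Each 24 h mouse had a median over the late genes of 0.91 to 1.02 above the mean of the controls. None had a late gene at or below that mean, and each exceeded every control mouse for 80 to 83 of the 84 genes. The 24 h mice and the controls did not overlap for 77 late genes. This is the case, with 24 h higher, for 17.5% of the 9212 genes, but the rule fixed the contrast, so that nothing is read from the difference. The 12 h mice lay wholly above the controls for 33 late genes, as compared with 13.8% of the 9212 genes. Among the 24 h mice, B27 was the lowest for 36 late genes and B24 the highest for 26.

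The genes just inside the limit at 24 h were Siah2 (0.80), St7 (0.80) and Fgfrl1 (0.81), and those just outside were Cisd3 (0.80), Tubb5 (0.80) and Dlat (0.80), which differ from them by less than 0.01. At 3 h the genes nearest to the limit on its inner side were Stip1 (0.32), Gas6 (0.31) and Gm4335 (0.31), and on its outer side Macf1 (0.36), Gm15241 (-0.38) and Usp10 (-0.39). At 6 h they were Slc6a8 (0.35), Tcf7l1 (0.34) and Zfp511 (0.34) inside, and Txnrd1 (0.35), Tm6sf1 (0.36) and Osbpl6 (0.36) outside. In total 672 genes lay 0.8 or more above the controls at 24 h, of which the late genes are 12.5%, and 161 of these 672 genes had already reached 0.8 at 3 h. The mirror pattern, a fall of 0.8 or more at 24 h with the same limits at 3 and 6 h, was met by 96 genes.

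The late genes included 73 protein-coding genes, 9 pseudogenes, 1 long intergenic non-coding RNA and 1 transcript, Gm20712, that the annotation classes as sense overlapping, although no gene overlapping it was found there. Only 9 of them were on any of the 35 lists of pathway genes and cell type markers. These included Dhcr7 (cholesterol synthesis), G6pdx (lipogenesis), Acsl5 (the list of fatty acid oxidation), Pygl (glucose and glycogen), Cox7a1 (1 of 93 genes of the respiratory chain), Pdhb (the list of the TCA cycle and branched-chain amino acids), Srxn1 (oxidative stress defence) and Slc6a8 (creatine). For a description, the late genes were also sorted into 16 groups by their known roles, after their values had been seen. Apart from 13 other protein-coding genes and 11 pseudogenes and non-coding RNAs, the largest of these were intracellular signalling (10 genes), sugar, glycogen and NADPH enzymes (6 genes) and vesicle traffic (6 genes).

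Among the enzymes, Dhcr7 (chr7:143823145-143848410), a sterol reductase of cholesterol synthesis, was at 40.3, 42.0, 44.8 and 44.9 CPM in the controls and at 53.3, 85.4, 115 and 125 CPM at 24 h, a log2 difference of 1.06. The 24 h mice were more spread than the controls (94.6 ± 32.3 CPM against 43.0 ± 2.25 CPM, SD, n = 4), and the groups did not overlap.

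The enzymes of NADPH supply and of pyruvate oxidation showed different courses. G6pdx (chrX:74409483-74429194), glucose-6-phosphate dehydrogenase, was at 367, 396, 399 and 497 CPM in the controls, at 392 to 482 CPM at 12 h and at 791, 812, 882 and 947 CPM at 24 h. Its 12 h mice overlapped the controls (log2 difference 0.06), whereas every 24 h mouse exceeded every control (1.06). Pdhb (chr14:8165996-8173025), a subunit of pyruvate dehydrogenase, was at 928, 1005, 1114 and 1167 CPM in the controls, at 1433 to 1798 CPM at 12 h and at 1463, 1809, 2035 and 2586 CPM at 24 h. For Pdhb all the 12 h mice already lay above the controls, with a log2 difference of 0.55 at 12 h and 0.88 at 24 h. Pygl (chr12:70190811-70231488), glycogen phosphorylase, was like G6pdx, at 502, 656, 719.7 and 742 CPM in the controls and at 1134, 1156, 1186 and 1193 CPM at 24 h, with a log2 difference of 0.06 at 12 h and 0.85 at 24 h. Aprt (chr8:122574635-122576909), which salvages adenine into AMP, was at 3.81, 4.50, 7.05 and 7.26 CPM in the controls and at 16.0, 17.2, 17.7 and 21.0 CPM at 24 h. Its log2 difference of 1.62 was among the largest of the late genes.

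Genes of fatty acid use and of mitochondria followed. Acsl5 (chr19:55251938-55297720), which activates long-chain fatty acids, was at 118, 201, 212 and 281 CPM in the controls and at 379.6, 384, 393 and 416 CPM at 24 h, with a log2 difference of 1.02, and at 165 to 243 CPM at 12 h. Cox7a1 (chr7:30184144-30186078), the cytochrome c oxidase subunit of muscle and brown fat, was at 205, 287, 331 and 336 CPM in the controls and at 478, 478, 512 and 599.7 CPM at 24 h, a log2 difference of 0.86. The 12 h mice, between 275 and 433 CPM, overlapped the controls. The other late genes of mitochondria were Uqcc2, an assembly factor of the respiratory chain, Rmnd1, needed for mitochondrial translation, Ethe1, which oxidises persulfides, and Slc25a37, which imports iron, with log2 differences of 0.93, 1.03, 1.06 and 0.90 at 24 h. Srxn1 (chr2:152105516-152111376), which repairs oxidised peroxiredoxins, was at 51.2, 68.6, 74.8 and 92.6 CPM in the controls and at 109, 109, 192 and 214 CPM at 24 h, a log2 difference of 1.07. Its groups were separate.

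Several late genes encode signalling proteins. Deptor (chr15:55112317-55259271), an inhibitor of the mTOR kinase, was at 555, 617, 696 and 739.6 CPM in the controls, at 779.9 to 927 CPM at 12 h and at 1336, 1654, 1688 and 1906 CPM at 24 h. Its 12 h mice lay between both groups without overlapping either, and the log2 difference was 0.42 at 12 h and 1.33 at 24 h. Grb14 (chr2:64912476-65024987), an adaptor that inhibits the insulin receptor, was at 13.8, 18.4, 20.8 and 22.7 CPM in the controls and at 33.6, 47.8, 49.3 and 53.9 CPM at 24 h, with a log2 difference of 1.27. Rhou (chr8:123653929-123663884), a small GTPase, was at 13.7, 14.6, 17.97 and 31.1 CPM in the controls and at 34.96, 38.9, 44.5 and 70.8 CPM at 24 h, with a log2 difference of 1.29. 1 control mouse of Rhou was close to the lowest 24 h mouse. Pdgfd (chr9:6168584-6378850), a secreted growth factor, was at 18.5, 20.6, 22.8 and 24.6 CPM in the controls and at 38.0, 60.9, 68.5 and 81.8 CPM at 24 h. It differed by 1.46 on the log2 scale at 24 h and by 0.03 at 12 h, so that its 12 h mice overlapped the controls.

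Of the Notch pathway, the receptor Notch2 (log2 difference at 24 h of 0.94), Aph1b, a subunit of the protease that releases the intracellular part of Notch (1.15), and the transcription factor Hey1, a target of Notch signalling (0.88), were late genes. Hey1 (chr3:8663359-8667256) was at 5.61, 6.23, 6.36 and 6.72 CPM in the controls and at 7.81, 11.4, 11.6 and 19.2 CPM at 24 h, so that 1 mouse was higher than the other three. Slc6a8 (chrX:73673150-73682502), the creatine transporter, was at 7.63, 10.9, 11.4 and 14.5 CPM in the controls and at 20.5, 25.8, 26.4 and 27.2 CPM at 24 h, with a log2 difference of 1.16. Rcn1 (chr2:105386291-105399319), a calcium-binding protein of the endoplasmic reticulum, was at 4.84, 6.41, 6.62 and 6.90 CPM in the controls and at 17.8, 19.1, 19.9 and 31.0 CPM at 24 h, with a log2 difference of 1.72. Of the 15 genes with the largest differences, those not yet described include Hspa4l, a chaperone (1.21), Ripor2 (1.16), Cbr1, a carbonyl reductase (1.14), Fn3k, which removes sugars from glycated proteins (1.13), the retrogene G6pd2 (1.12) and the RNA 2310069B03Rik (1.28).

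**Figure D2:**
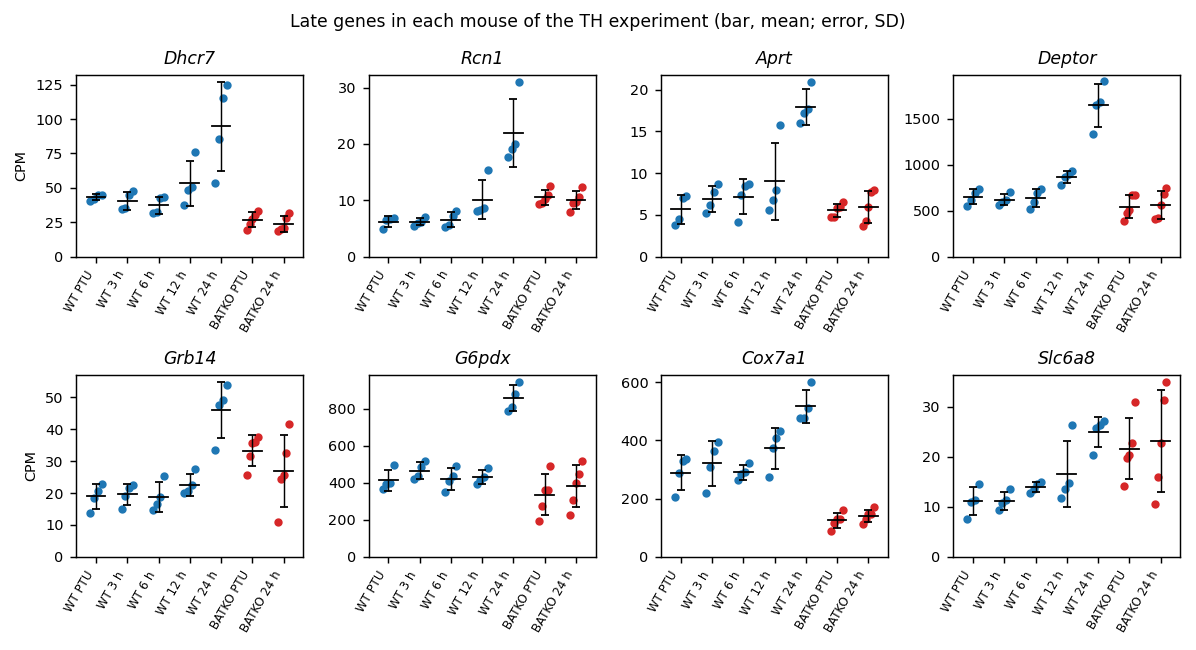
CPM of 8 late genes in each mouse of the TH experiment, by group (WT blue, 4 mice per group; BATKO red, 5 mice per group; bars, mean; error bars, SD). The WT 24 h mice of Rcn1 lie between 17.8 and 31.0 CPM and the WT controls at 4.84 to 6.90 CPM, a contrast that the rule used. The BATKO 24 h mice (7.96 to 12.4 CPM) overlap the BATKO controls (9.33 to 12.5 CPM), which lie wholly above the WT controls.

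Copies of other genes formed a group of their own. Among the 9 pseudogenes, 6, namely Gapdh-ps14, Gm11185, Gm4335, Gm5069, Gm8318 and Gm8756, are copies of the glycolytic gene Gapdh with 93.2% to 98.3% identity. Gapdh itself was not a late gene, since it already differed from the controls by 0.75 at 3 h and by 1.33 at 6 h. Gapdh had, however, a mean raw count of only 113 in WT mice, and how reads shared by near-identical copies had been counted is not given in the sources used here, so that their values are uncertain. Summed over the 6 copies, WT controls were between 53.9 and 78.5 CPM, 6 h mice between 65.9 and 89.8 CPM, 12 h mice between 79.7 and 93.2 CPM and 24 h mice between 119 and 132 CPM. Gm6123 is a copy of Pdhb, itself a late gene, with 97.0% identity, and G6pd2 a copy of G6pdx with 93.1% identity, so that neither pair counts as independent. Mrps36-ps1 is a copy of Mrps36 (99.4% identity), which missed the limit with 0.74 at 24 h, and Uqcrh-ps1 one of Uqcrh (92.9%), at 0.41. 2310069B03Rik (chr6:82877864-82881853), the long intergenic non-coding RNA, was at 24.0, 32.9, 64.9 and 70.2 CPM in controls and between 95.6 and 122 CPM at 24 h, a log2 difference of 1.28. In all 35 late genes overlap a gene on the opposite strand, such as G6pdx with Ikbkg, and since the strand setting of the counting is not given in the sources used here, their reads may be shared.

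To ask whether the late genes also responded in BATKO mice, the 5 BATKO mice taken 24 h after TH were compared with the 5 BATKO controls, a contrast that the rule did not use. None of the 84 late genes passed the test (edgeR quasi-likelihood test on the 10 BATKO mice, Benjamini-Hochberg adjusted p below 0.05). In this comparison 0.00% of 14844 genes were called higher and 0.00% lower. At an unadjusted p below 0.05, 319 genes were higher and 354 lower. Of the late genes 2 were among those higher, Btnl9 (log2 fold change 0.47) and St7 (0.43), none was among those lower, and the lowest adjusted p of a late gene was 0.945. DESeq2 likewise called 0 genes.

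On the scale of log2(CPM + 0.5), the late genes differed between BATKO groups by a median of 0.06, ranging from -0.40 (Grb14) to 0.48 (Btnl9), with a median over the 9212 genes of 0.01. No late gene reached 0.8, 75 lay within 0.35 of 0, and 24 lay below 0. The 2 BATKO groups overlapped for all 84 genes. Among the 9212 genes, 0.608% did not overlap, in either direction. The 95% interval of the log2 fold change lay wholly under 0.8 for 72 late genes, and reached 0.8 or more for 12. For these 12 genes a rise of the size that the rule asked for lies within the interval. The standard errors ranged from 0.099 to 0.53.

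Among the late genes with the largest differences in WT mice, Rcn1 was at 9.33, 9.55, 10.2, 10.9 and 12.5 CPM in BATKO controls and at 7.96, 9.51, 9.61, 10.6 and 12.4 CPM after TH (log2 fold change -0.08 ± 0.14, SE). The groups overlapped. The interval of this BATKO fold change ran from -0.39 to 0.22. The intervals in BATKO mice were -0.38 to 0.50 for Aprt, -0.34 to 0.41 for Deptor, -0.31 to 0.37 for Pdhb, -0.35 to 0.65 for G6pdx and -0.55 to 0.87 for Acsl5. Since the WT difference had been used to choose the genes, the difference between the WT and BATKO responses was not tested, and nothing is read from setting these intervals against the WT values.

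The 588 other genes that lay 0.8 or more above the controls at 24 h in WT mice had a median of 1.17 in WT and 0.13 in BATKO mice, and 8 of them (1.36%) reached 0.8 in BATKO mice. The 161 genes that had reached 0.8 at both 3 and 24 h had medians of 1.46 and 0.23. WT and BATKO mice differed before TH as well. In sum, the 12 brown adipocyte markers were between 33740 and 36740 CPM in WT controls and between 19730 and 22310 CPM in BATKO controls. Markers of fibroblasts and preadipocytes (224 to 267 CPM in BATKO against 481 to 538 CPM in WT controls), white adipocytes (92.1 to 157 against 278 to 321 CPM), Schwann cells and nerve (198 to 368 against 420 to 514 CPM) and neutrophils and mast cells (22.97 to 63.9 against 64.7 to 93.1 CPM) were wholly lower as well. Endothelial markers were wholly higher (1141 to 1335 against 1032 to 1128 CPM), and the other 5 lists overlapped. The part of these cell types in the values of BATKO mice was not tested. Cox7a1 was between 205 and 336 CPM in WT and between 88.0 and 162 CPM in BATKO controls. Slc6a8 was at 14.1 to 31.0 CPM in BATKO controls and at 7.63 to 14.5 CPM in WT controls, with overlap. The genotype and anything else that differed between the WT and BATKO mice of the TH experiment cannot be told apart. BATKO mice also varied among themselves. The median of the late genes, taken against the mean of the BATKO controls, ranged from -0.34 to 0.28 among these controls and from -0.27 to 0.31 among the treated mice.

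**Figure D3:**
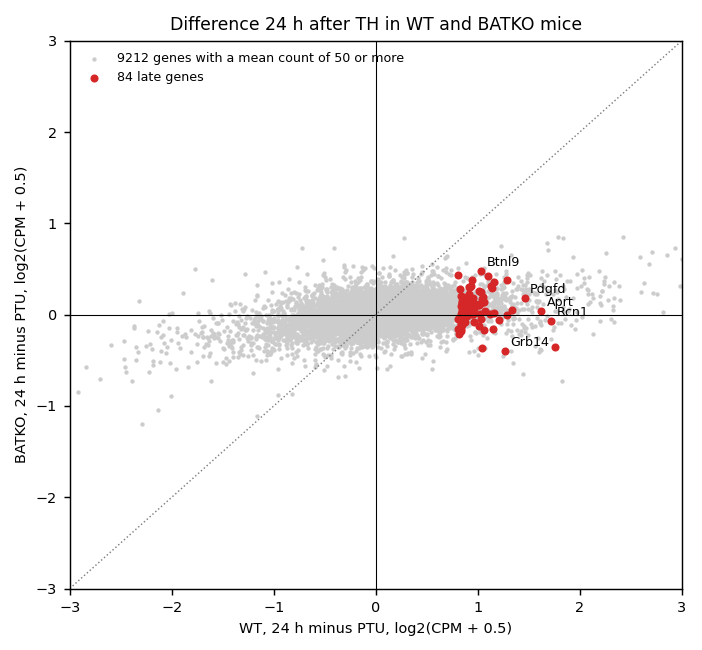
Difference between 24 h and PTU mice in group mean log2(CPM + 0.5) in BATKO mice (vertical, 5 mice per group) against WT mice (horizontal, 4 mice per group) for the 9212 genes meeting the count limit (grey) and the 84 late genes (red); 32 genes lie outside the limits of 3, and the dotted line marks equal differences. The late genes lie at 0.80 to 1.76 in WT mice by the rule, and between -0.40 and 0.48 in BATKO mice.

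Cold is the main physiological drive of BAT. In CTRL mice, 37 of the 84 late genes were higher at 4 °C than at 30 °C (44.0%) and 20 were lower (23.8%), at an adjusted p below 0.05 (edgeR quasi-likelihood test with TMM normalization on all 16 mice of the experiment). Over all 13239 genes tested, 26.5% were higher and 22.6% lower, and the difference between the shares was not tested. In BATKO mice 28 late genes were higher (33.3%, against 21.4% of all genes) and 22 were lower (26.2%, against 18.9%). The median log2 fold change of the late genes was 0.55 in CTRL and 0.18 in BATKO mice, as compared with -0.01 and -0.02 over all genes. 25 genes were higher in both genotypes and 18 lower in both, 20 were called in neither, and none was called in opposite directions.

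The direction of these calls depended in part on the scaling. When the libraries were scaled by their plain totals without mitochondrial genes, the scale on which the late genes had been chosen, the median of all genes at 4 °C moved to -0.52 in CTRL and -0.32 in BATKO mice, and that of the late genes to 0.06 and -0.13. In CTRL mice 22 late genes were then higher and 28 lower, with 7796 of all 13281 genes called, and in BATKO mice 18 and 32, with 6263 genes called. All 20 late genes called lower in CTRL mice kept this call, as did all 22 in BATKO mice. Since this scaling moved the fold changes down, keeping these calls was nearly fixed in advance. Of the 37 called higher in CTRL mice 22 kept the call, and Rab11fip5 turned to below 0 without being called. Fold changes below are on the TMM scale, and thus relative to a median of all genes near 0.

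The largest increases in the cold were of 2310069B03Rik and Acsl5. 2310069B03Rik was in CTRL mice at 3.99, 4.80, 5.29 and 5.98 CPM at 30 °C and at 96.3, 167 and 306 CPM at 4 °C (log2 fold change 5.73 ± 0.52, SE, adjusted p = 3.97e-07, edgeR). In BATKO mice it was at 1.86, 3.35, 4.11, 4.37 and 4.45 CPM at 30 °C and at 13.8, 46.0, 54.8 and 80.1 CPM at 4 °C (4.08 ± 0.46, adjusted p = 5.47e-06). All 7 mice at 4 °C lay above all 9 mice at 30 °C, and every CTRL mouse at 4 °C above every BATKO mouse at 4 °C. Acsl5 was in CTRL mice at 41.1, 47.7, 51.8 and 57.3 CPM at 30 °C and at 573, 783 and 947 CPM at 4 °C (4.45 ± 0.30, adjusted p = 3.07e-08). In BATKO mice it was at 30.2, 34.4, 40.3, 56.7 and 59.1 CPM at 30 °C and at 204, 318, 333 and 440.3 CPM at 4 °C (3.19 ± 0.25, adjusted p = 3.24e-07), and both groups at 4 °C were separate from each other and from the mice at 30 °C.

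Dhcr7 was higher in CTRL mice by 0.61 ± 0.19, adjusted p = 0.013, and was not called in BATKO mice (0.13 ± 0.17). Of 22 tested genes of cholesterol synthesis, 18 were higher and 1 lower in CTRL mice, and 17 were higher and 1 lower in BATKO mice. Srxn1 was in CTRL mice at 29.1, 32.2, 33.7 and 36.6 CPM at 30 °C and at 100.2, 111 and 128 CPM at 4 °C (2.27 ± 0.16, adjusted p = 5.13e-08), with a fold change of 1.83 ± 0.14 in BATKO mice. Rbp7, a retinol-binding protein, was higher by 2.58 ± 0.48 in CTRL and 1.35 ± 0.42 in BATKO mice. G6pdx (1.03 ± 0.19 and 0.89 ± 0.17), Pygl (1.64 ± 0.32 and 0.97 ± 0.28), Pdhb (1.26 ± 0.28 and 1.38 ± 0.25) and Cox7a1 (1.77 ± 0.20 and 0.79 ± 0.17) were higher in CTRL and in BATKO mice. Of 97 tested genes of the respiratory chain, 76 were higher and 2 lower in CTRL mice, with 58 and 2 in BATKO mice. Gapdh-ps14, a copy of Gapdh, was called only in BATKO mice (1.55 ± 0.58, adjusted p = 0.0413), with 1.40 ± 0.64, adjusted p = 0.0832 in CTRL mice, and this difference between genotypes was not called.

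The largest decreases were of Mturn and Grb14. Mturn, a regulator of neural differentiation, was in CTRL mice at 102, 102, 106 and 167 CPM at 30 °C and at 11.0, 11.5 and 14.5 CPM at 4 °C (-2.77 ± 0.22, adjusted p = 1.02e-07). In BATKO mice it was at 79.1, 105, 111, 113 and 149.8 CPM at 30 °C and at 14.4, 15.2, 16.8 and 18.4 CPM at 4 °C (-2.48 ± 0.18). Grb14 was in CTRL mice at 77.0, 84.8, 90.0 and 90.3 CPM at 30 °C and at 11.8, 12.0 and 14.3 CPM at 4 °C (-2.26 ± 0.30, adjusted p = 1.48e-05), and in BATKO mice at 54.2, 56.4, 67.2, 91.1 and 114 CPM at 30 °C and at 8.05, 11.5, 13.5 and 19.8 CPM at 4 °C (-2.23 ± 0.26). The mice at 4 °C lay wholly below those at 30 °C for both genes. Slc6a8 behaved alike, in CTRL mice at 62.3, 70.2, 78.1 and 84.6 CPM at 30 °C and at 16.8, 20.2 and 21.6 CPM at 4 °C (-1.43 ± 0.23), and in BATKO mice at 66.9 to 111 CPM and at 14.4 to 31.5 CPM (-1.84 ± 0.20). Slc45a4, a sugar transporter (-1.71 ± 0.31 in CTRL mice), Notch2 (-1.52 ± 0.15) and Syde1, a GTPase-activating protein (-1.26 ± 0.19), were lower as well, with -1.57, -0.82 and -1.38 in BATKO mice. The secreted factors Pdgfd (-1.03 ± 0.30 in CTRL mice) and Gas6 (-1.16 ± 0.24), the receptor Fgfrl1 (-1.22 ± 0.20), and Rcn1 (-0.80 ± 0.29), Rhou (-0.78 ± 0.24) and Aph1b (-0.75 ± 0.21) were called lower in CTRL and in BATKO mice. Deptor was called in neither.

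**Figure D4:**
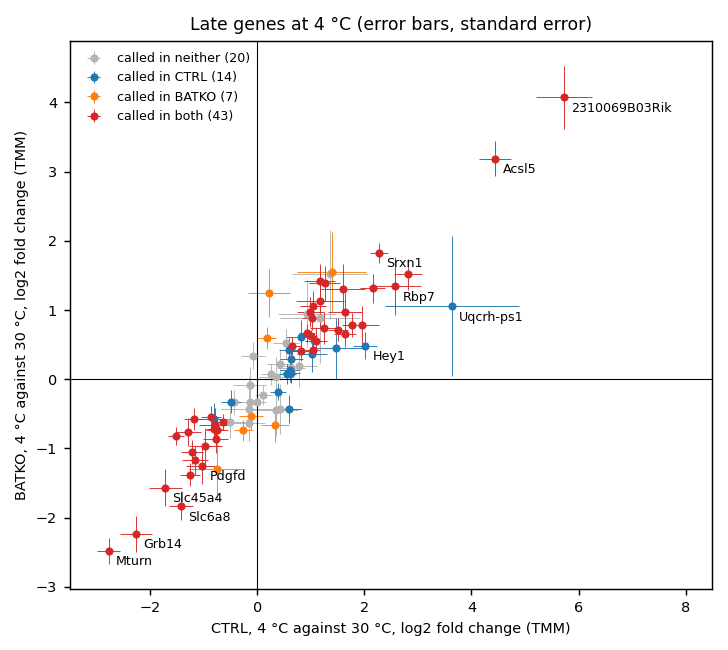
Log2 fold change at 4 °C against 30 °C on the TMM scale in BATKO mice (vertical) against CTRL mice (horizontal) for the 84 late genes, with standard errors, coloured by the calls of edgeR. 43 genes were called in both genotypes, 14 in CTRL and 7 in BATKO mice, and 20 in neither; 2310069B03Rik (5.73 and 4.08) and Mturn (-2.77 and -2.48) are at the ends.

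Late genes that lay 0.35 or more above the controls at 12 h after TH and those that did not were compared at 4 °C as counts. Of the 45 former genes 23 were higher and 10 lower in CTRL mice, with a median log2 fold change of 0.63, and of the 39 latter 14 were higher and 10 lower, with a median of 0.34. In BATKO mice 18 of the 45 were higher and 12 lower, and 10 of the 39 were higher and 10 lower. Over all genes 26.5% were higher and 22.6% lower in CTRL mice, and 21.4% and 18.9% in BATKO mice. The difference between these sets of late genes was not tested. Markers of other cells moved with the temperature. In CTRL mice the summed brown adipocyte markers were at 44580 to 51180 CPM at 4 °C and 15900 to 18050 CPM at 30 °C, 7 lists were wholly lower at 4 °C (those of endothelium, macrophages, neutrophils and mast cells, fibroblasts, pericytes, nerve and white adipocytes), erythroid markers were wholly higher (1241 to 2692 against 398 to 793 CPM), and 2 of 11 overlapped. In BATKO mice the brown adipocyte (35660 to 49110 against 16120 to 19620 CPM) and erythroid markers (1340 to 2003 against 380 to 1098 CPM) were wholly higher at 4 °C, and 6 of the 7 lists that were lower in CTRL mice were wholly lower, with overlap for macrophages. These sums are CPM on plain totals, a scale on which the median of all genes lay below 0 at 4 °C. On the TMM scale the median log2 fold changes in CTRL mice were -0.10 (endothelium), -0.79 (macrophages) and -1.45 (neutrophils and mast cells). Those of fibroblasts, pericytes, nerve and white adipocytes were -0.71, 0.25, -0.88 and -1.05. In BATKO mice the 7 medians were, in the same order, -0.55, 0.17, -1.17, -0.19, 0.15, -0.47 and -1.38. The part of these cells in the calls was not tested. Muscle markers were above 4000 CPM in 4 mice at 30 °C (2 CTRL mice at 5593 and 14410 CPM and 2 BATKO mice at 21830 and 22720 CPM) and in no mouse at 4 °C. Without these 4 mice, 30 late genes were higher and 18 lower in CTRL mice, and 21 and 17 in BATKO mice. Over all genes the calls fell as well, from 6504 to 5044 in CTRL mice and from 5333 to 4066 in BATKO mice.

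BATKO and CTRL mice were next compared at the same temperature. At 30 °C none of the 84 late genes was called (edgeR), while 0.00755% of all genes were called higher and 0.00% lower in BATKO mice. At an unadjusted p below 0.05 there were 2 late genes in each direction, with 899 of all 13239 genes higher and 310 lower. DESeq2 called 0 late genes and 8 genes in all. At 4 °C 4 late genes were lower in BATKO than in CTRL mice (1.21% of all genes were) and none was higher (0.959% of all genes were). At an unadjusted p below 0.05, 22 late genes were lower and 3 higher, as were 1163 and 1027 of all genes. The 4 called genes included 2310069B03Rik (-2.10 ± 0.44, adjusted p = 0.0219), Acsl5 (-1.39 ± 0.27, adjusted p = 0.0172) and Cox7a1 (-0.82 ± 0.19, adjusted p = 0.0375). For these genes the 3 CTRL mice and the 4 BATKO mice did not overlap. Of the 11 lists of cell type markers, that of macrophages and monocytes was wholly higher in BATKO mice at 4 °C (141 to 229 against 110 to 136 CPM) and 10 overlapped, and the part of these cells in the calls was not tested. Cox7a1 was at 532, 604 and 628 CPM in CTRL mice at 4 °C and at 301, 321, 422 and 431 CPM in BATKO mice. The count of 4 depended on single mice and on the fit. It fell to 1 without CTRL mouse 1, to 2 without CTRL mouse 2, and to 2 when only both groups were fitted, and rose to 12, all of them lower, with DESeq2, which called 643 genes in all as compared with 287 for edgeR. With plain totals 4 were lower and 2 higher, and 417 genes were called in all.

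The response to temperature differed between BATKO and CTRL mice for 1 late gene by the interaction term, Hey1 (-1.53 ± 0.30, adjusted p = 0.0289, edgeR). Over all genes 0.808% had a lower and 0.317% a higher term. DESeq2 called 8 late genes, 7 with a lower and 1 with a higher term, and 683 of 13239 genes in all, against 149 with edgeR. Hey1 was in CTRL mice at 7.40, 7.602, 8.22 and 11.1 CPM at 30 °C and at 20.9, 25.9 and 27.6 CPM at 4 °C (2.01 ± 0.22, adjusted p = 2.55e-06). In BATKO mice it was at 11.3, 12.3, 16.5, 17.1 and 18.2 CPM at 30 °C and at 13.1, 14.8, 18.7 and 21.7 CPM at 4 °C (0.48 ± 0.19, adjusted p = 0.0559). The CTRL groups were separate and the BATKO groups overlapped. At 30 °C the BATKO mice (11.3 to 18.2 CPM) lay wholly above the CTRL mice (7.40 to 11.1 CPM). At 4 °C the genotypes overlapped. The part of the difference at 30 °C in the interaction term was not tested. The call was lost when any of 7 mice was left out, with terms between -1.60 and -1.45 (BATKO 4 °C mouse 8, BATKO 30 °C mice 14 and 17, CTRL 4 °C mice 1 and 2, CTRL 30 °C mice 19 and 21), and without the mice rich in muscle markers (-1.77, adjusted p = 0.121). Cox7a1 (-0.99 ± 0.26, adjusted p = 0.0727) and Acsl5 (-1.26 ± 0.37, adjusted p = 0.0884) did not pass the threshold.

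**Figure D5:**
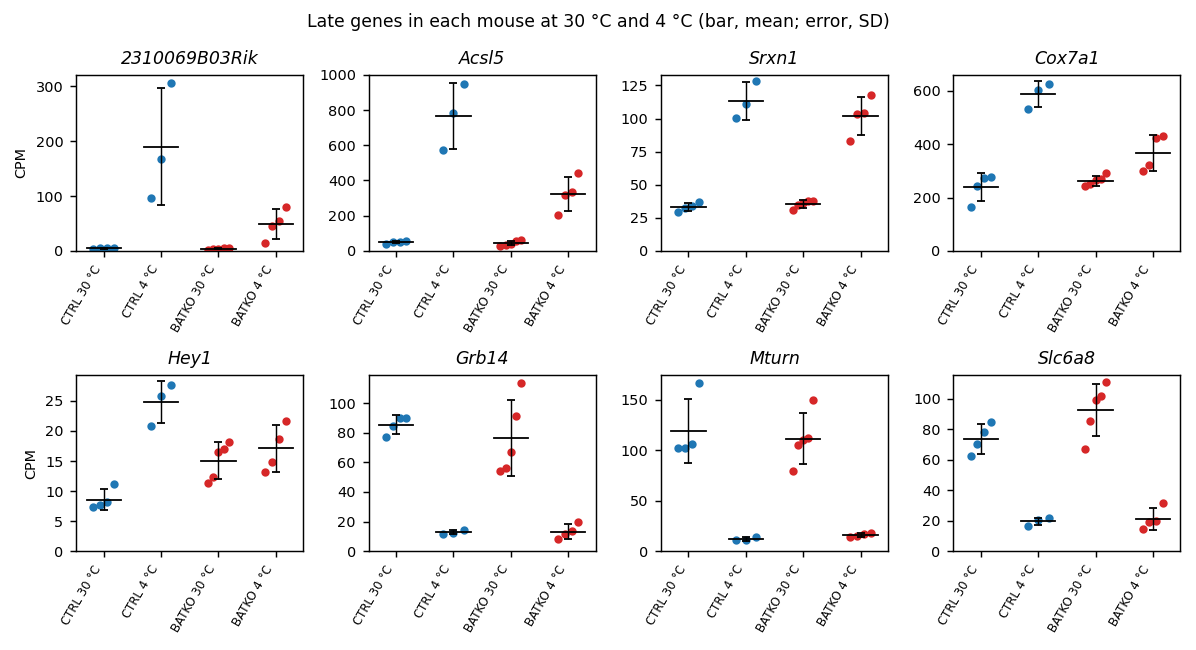
CPM of 8 late genes in each mouse at 30 °C and 4 °C (CTRL blue, BATKO red; 3 to 5 mice per group; bars, mean; error bars, SD). Hey1 goes from 7.40 to 11.1 CPM at 30 °C to 20.9 to 27.6 CPM at 4 °C in CTRL mice and overlaps between temperatures in BATKO mice, whereas Grb14, Mturn and Slc6a8 are lower at 4 °C in CTRL and BATKO mice.

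Uqcrh-ps1, a pseudogene, was called higher at 4 °C in CTRL mice (3.64 ± 1.25, adjusted p = 0.0231), at 7.66, 7.98, 8.10 and 10.2 CPM at 30 °C and at 16.6, 19.3 and 187 CPM at 4 °C. The highest value came from CTRL mouse 1, and without it the fold change was 1.51 and the adjusted p 0.346 (edgeR). In BATKO mice it was at 7.41, 7.47, 8.31, 9.16 and 125 CPM at 30 °C and at 9.98, 12.3, 13.9 and 169.6 CPM at 4 °C, so that 1 mouse at either temperature stood apart in the same way.

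On HFD, 6 of the 79 late genes tested differed from Chow in CTRL mice, 3 of them higher (1.90% of 12916 genes were) and 3 lower (2.04% were). The other 5 late genes, all of them copies of Gapdh, had a mean normalized count of 10 or less and were not tested. Hey1 was higher, at 4.47, 11.7, 12.8 and 13.0 CPM on Chow and at 17.99, 22.8, 22.9 and 26.7 CPM on HFD (1.12 ± 0.25, adjusted p = 0.0257, edgeR), as were Fah, an enzyme of tyrosine breakdown (0.65 ± 0.11, adjusted p = 0.008), and Cox7a1 (0.62 ± 0.16, adjusted p = 0.0408). Pygl was lower, at 141, 202, 214 and 217 CPM on Chow and at 71.5, 75.8, 117 and 121 CPM on HFD (-0.97 ± 0.18, adjusted p = 0.0118). Iffo2 was lower, at 28.2, 28.2, 31.4 and 33.9 CPM on Chow and at 18.04, 21.0, 21.4 and 22.3 CPM on HFD (-0.53 ± 0.13, adjusted p = 0.0318), as was Dhrs7, a short-chain dehydrogenase (-0.34 ± 0.09, adjusted p = 0.0427). The groups of Hey1, Pygl and Iffo2 did not overlap. On the list of lipogenesis, 0 genes were higher and 8 of 21 lower in CTRL mice on HFD, and G6pdx, the late gene on that list, was at 0.12 ± 0.13. In sum, the brown adipocyte markers were higher on HFD (21300 to 25860 against 17580 to 21260 CPM), as were those of macrophages and monocytes (243 to 1010 against 172 to 233 CPM), while those of neutrophils and mast cells were lower (36.2 to 64.9 against 73.5 to 129 CPM). The other 8 lists overlapped, and the part of these cell types in the diet results was not tested. Without the 2 Chow mice rich in muscle markers (4662 and 6778 CPM) 2 late genes were higher and 1 lower, while the calls over all genes went from 509 to 566. The number called fell to 2 without CTRL HFD mouse 10 or without mouse 11, and to 3 without CTRL Chow mouse 2 or without mouse 4.

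In BATKO mice, 1 late gene differed between diets. Iffo2 was at 34.98 and 40.1 CPM on Chow and at 16.4, 17.7 and 21.1 CPM on HFD (-0.97 ± 0.16, adjusted p = 0.0416, edgeR), while 0.0387% of all genes were lower and 0.0310% higher. This call was lost in 11 of the 13 fits that left out 1 mouse and in the fit of both groups alone. In sum, 4 marker lists were wholly lower in BATKO mice on HFD, those of macrophages and monocytes (207 to 411 against 555 to 650 CPM), lymphocytes (22.6 to 26.6 against 37.2 to 46.4 CPM), neutrophils and mast cells (40.4 to 47.4 against 78.6 to 80.7 CPM) and white adipocytes (354 to 578 against 619 to 792 CPM). The lists of brown adipocytes (24670 to 28630 against 20030 to 23130 CPM), pericytes and smooth muscle (1581 to 1777 against 1315 to 1548 CPM) and erythroid cells (1118 to 2224 against 886 to 952 CPM) were wholly higher, and the other 4 overlapped. The part of these cell types in the call of Iffo2 was not tested. BATKO against CTRL mice on HFD or on Chow, and the difference of the diet response between them, gave 0 late genes, with 0.00% of all genes called in either direction in each of these 3 comparisons. At an unadjusted p below 0.05, 7 late genes were lower and 0 higher in BATKO mice on HFD, with 347 and 345 of all 12916 genes, and 6 were lower and 1 higher on Chow, with 437 and 587 of all genes. DESeq2 called 1 late gene on HFD (12 genes in all), 0 on Chow (31 genes in all) and 0 for the difference of the responses (0 genes in all). With 2 BATKO mice on Chow, the precision of these comparisons is limited.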

How the data were processed

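BAT RNA of 59 mice had been extracted with Trizol, converted with the total RNA SENSE kit (Lexogen) and sequenced on an Illumina NextSeq. The authors deposited raw counts per gene, in 1 table per experiment. The study's methods name Bowtie on GRCm38, removal of reads with an alignment quality below 10, and htseq-count for data sets that it downloaded, and whether these steps made the deposited counts is not stated. The submitters' processing notes name Bowtie2 2.3.2.2 and DESeq2. The gene annotation and the strand setting are not given in the sources used here. Samples were grouped by the labels. Library totals ran from 7612059 to 18073627 counted reads, which limits the precision for weakly expressed genes.

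From these counts, CPM was computed on totals without mitochondrial genes, and the late genes were selected on log2(CPM + 0.5) in WT mice as described above. The other comparisons used edgeR 4.0.16 in R 4.3.3 (TMM, quasi-likelihood test, genes with a mean normalized count above 10, Benjamini-Hochberg adjusted p below 0.05 over all genes), fitted to all mice of the temperature or diet experiment, or to the BATKO mice of the TH experiment. DESeq2 1.42.0, other scalings and filters, and leaving out each mouse were alternatives. Plain totals and leaving out mice with more than 4000 CPM of muscle markers were added after the data had been seen. Scripts were tested on simulated data. The labels do not say how mice were housed or paired, and p-values measure the spread between these mice. No 2 libraries of a group agreed within sampling noise. Pseudogenes were matched with blastn 2.17.0. Coordinates are those of GENCODE M21 (GRCm38).

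The late genes, the lists of pathway and marker genes and the tests were chosen with earlier results of these data known, and the 16 role groups were made after membership was known. Named were the 15 late genes with the largest 24 h difference, those on a list, the 5 called with the largest fold change in each direction per comparison, and the 3 nearest to each limit on either side. Other late genes were named as examples of their role, after their values had been seen. 1 gene that this rule names is not reported here.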

Additional observations from a re-analysis of the deposited data

Results flagged for a closer look

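In groups of 4 or 5 mice, 8 of 155 combinations of a described late gene and a group had 1 mouse far from the others by Dixon's criterion. Chance alone flags about 1 in 20 groups. In WT mice, Rcn1 was at 15.3 CPM in mouse B23 at 12 h (the others at 8.09 to 8.63 CPM) and at 31.0 CPM in mouse B28 at 24 h (17.8 to 19.9 CPM). Rhou was at 13.1 CPM in mouse B9 at 3 h (21.8 to 23.3 CPM), and Pdhb at 1798 CPM in mouse B20 at 12 h (1433 to 1477 CPM).

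At 30 °C, Mturn was at 167 CPM in CTRL mouse 19 (102 to 106 CPM). Uqcrh-ps1 was at 125 CPM in BATKO mouse 14 at 30 °C (7.41 to 9.16 CPM) and at 170 CPM in BATKO mouse 11 at 4 °C (9.98 to 13.9 CPM). Hey1 was at 4.47 CPM in CTRL mouse 2 on Chow (11.7 to 13.0 CPM). The response of Hey1 to temperature also differed between BATKO and CTRL mice, with an interaction term of -1.53 (edgeR).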

How the results depend on the processing

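The number of late genes, 84, changed with the limits. It was 142 with a mean raw count of 10 or more and 31 with 200 or more, 40 and 146 with limits of 0.25 and 0.5 at 3 and 6 h, and 207 and 31 with limits of 0.6 and 1 at 24 h. Leaving out 1 WT mouse gave 70 to 92 late genes. In these 20 fits 22 late genes were kept in all, 52 in 15 to 19 and 10 in fewer, with a lowest number of 11. The rule uses the 12 h mice only through the count limit. The fits without 1 of these 4 mice, which are among the 20, each kept all 84 genes. TMM scaling gave 89 genes, of which 79 were shared, and a pseudocount of 2 gave 70, of which 62 were shared.

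The calls in BATKO against CTRL mice at 4 °C numbered 12 with DESeq2 (643 over all genes) and 2 with only the groups compared (61), and those of the temperature interaction 8 with DESeq2 (683), 2 with plain totals (138) and 0 without the mice rich in muscle markers (4). In CTRL mice on HFD against Chow, 3 late genes were called without the mice rich in muscle markers (566 over all genes) and 2 with only the groups compared (321). In BATKO mice on HFD against Chow, the numbers were 2 with DESeq2 (266 over all genes), 3 with no filter on the mean count (336) and 0 with only the groups compared (66). BATKO against CTRL mice gave 1 on HFD with DESeq2 (12 over all genes) and 1 with no filter (59), and 1 on Chow with no filter (290). The cause of these changes was not tested.

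Leaving out 1 mouse gave 50 to 58 calls at 4 °C against 30 °C in CTRL mice and 41 to 54 in BATKO mice. It gave 1 to 6 calls between genotypes at 4 °C, 0 to 4 for the temperature interaction, 2 to 6 for the diet in CTRL mice and 0 to 1 in BATKO mice. Between genotypes it gave 0 to 1 on HFD and 0 to 1 on Chow, and 0 in BATKO mice after TH, at 30 °C between genotypes and for the diet interaction. The calls with the largest fold changes, up to 5 in each direction per comparison, numbered 32, and 20 of them held in every alternative run. Over 745 alternative values of these 32 calls 662 kept the call, 83 lost it and 0 changed sign. Other calls named above are not in this tally, among them Rab11fip5 at 4 °C in CTRL mice, which changed sign with plain totals. No paired analysis was possible because the groups compared share no mouse numbers in the labels.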
